A study of Mus musculus with 30 samples.

Results

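Von Willebrand factor and 6 other genes by which endothelial cells promote or restrain clotting were followed in RNA from primary endothelial cells of the mouse brain. The 7 genes were taken by name, Vwf and F8 on the procoagulant side, Thbd, Procr and Tfpi on the anticoagulant side, Plat for fibrinolysis and Edn1 for the peptide that tightens vessels. All 7 were found among the 48795 genes counted, and all 7 were among the 16844 genes that passed the filter on low counts. The cells came from the brains of wild-type, untreated mice, and the strain, the isolation of the cells and the number of mice per library are not given in the sources used here. Mice were aged 2, 6, 12, 18 or 24 months, with 6 libraries an age, 3 from males and 3 from females, and so 30 libraries in 10 groups of age and sex. The design asked how expression moves with age after correction for sex.

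The endothelium holds blood fluid by keeping opposed systems in balance. Von Willebrand factor is a long adhesive protein that tethers platelets to injured vessel wall and carries coagulation factor VIII in plasma. Endothelial cells store it in Weibel-Palade bodies, rod-shaped granules that also hold P-selectin and angiopoietin-2 and empty on stimulation. On the restraining side, thrombomodulin (Thbd) binds thrombin and turns it toward protein C, the endothelial protein C receptor (Procr) presents protein C for that activation, and tissue factor pathway inhibitor (Tfpi) blocks the start of coagulation at tissue factor and factor VIIa. Tissue plasminogen activator (Plat) converts plasminogen to plasmin, which dissolves fibrin. Endothelin-1 (Edn1) is a vasoconstrictor peptide cut from a precursor by endothelin-converting enzyme.

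The libraries held 24140980 to 50464366 read counts in genes. Markers of endothelium were high in every library, with a summed level over 10 genes of 15241 to 20505 CPM (read counts scaled to library size), and the sexes read from the libraries matched the labels in 30 of 30. Reads outside genes made up 3.82 to 13.1% of the reads counted, with means of 5.06% at 2 months and 10.4% at 18 months. The 6 libraries of 18 months (7.99 to 13.1%) were all above the 6 of 2 months (3.82 to 6.61%) and of 6 months (4.51 to 7.89%). The share of counts that fell in longer genes, those above the median exon length, was lowest in the 3 females of 6 months (44.2 to 47.6%). Male 2-month replicate 1 had the highest summed levels of astrocyte (1064 CPM) and microglial (1072 CPM) markers, and male 18-month replicate 2 the highest of venous markers (2153 CPM). The labels do not say which 6 libraries were read as single ends, so this could not enter a model.

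On GRCm38, Vwf (ENSMUSG00000001930.17) lies on the plus strand of chromosome 6 from 125546774 to 125686679 with 56 blocks of merged exons. F8 (ENSMUSG00000031196.13) lies on the minus strand of chromosome X from 75172715 to 75382615, and 3 genes overlap its span with 0 shared exon bases. Of the anticoagulant genes, Thbd (ENSMUSG00000074743.4, a gene of 1 exon block) lies on the minus strand of chromosome 2 from 148404466 to 148408188. Procr (ENSMUSG00000027611.12) is on the plus strand of the same chromosome from 155751117 to 155755471, and Tfpi (ENSMUSG00000027082.15) on its minus strand from 84432855 to 84476775. Plat (ENSMUSG00000031538.6) spans 22757727 to 22782844 on the plus strand of chromosome 8. Edn1 (ENSMUSG00000021367.7) spans 42301476 to 42307990 on the plus strand of chromosome 13, where the antisense gene Gm47118 shares 35 exon bases with it. The library kit does not keep strand, so reads from those 35 bases cannot be told apart.

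Promoter windows, from 250 bases before to 50 after the annotated start (GRCm38.p6, RefSeq), were at hand for Tfpi, Procr, Edn1 and F8. Tfpi, the gene with a window that differed from 2 months at later ages, is shown beside Procr and Edn1, whose differences did not pass. Capitals mark 5 motifs on either strand. These are TATAA, the core promoter element read by the TATA-binding protein, and TGATAA, a site read by GATA-family factors such as Gata2. GGAAG is the core read by ETS factors such as Erg. CACCC is read by Krüppel-like factors such as Klf2, and TGACTCA by the AP-1 dimers of Fos and Jun. The windows are chr2:84476710-84477009 on the minus strand, chr2:155750967-155751266 on the plus strand and chr13:42301226-42301525 on the plus strand.
Tfpi: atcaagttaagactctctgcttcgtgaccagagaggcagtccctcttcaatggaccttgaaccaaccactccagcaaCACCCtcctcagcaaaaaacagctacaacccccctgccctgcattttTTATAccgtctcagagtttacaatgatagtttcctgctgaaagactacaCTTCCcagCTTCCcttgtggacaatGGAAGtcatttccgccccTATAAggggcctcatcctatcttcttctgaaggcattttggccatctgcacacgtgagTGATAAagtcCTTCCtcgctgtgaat
Procr: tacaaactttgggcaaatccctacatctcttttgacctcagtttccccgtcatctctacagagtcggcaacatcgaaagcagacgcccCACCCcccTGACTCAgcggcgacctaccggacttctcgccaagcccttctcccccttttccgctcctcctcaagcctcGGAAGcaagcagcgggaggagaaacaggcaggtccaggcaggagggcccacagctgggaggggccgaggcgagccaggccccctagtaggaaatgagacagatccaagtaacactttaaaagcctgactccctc
Edn1: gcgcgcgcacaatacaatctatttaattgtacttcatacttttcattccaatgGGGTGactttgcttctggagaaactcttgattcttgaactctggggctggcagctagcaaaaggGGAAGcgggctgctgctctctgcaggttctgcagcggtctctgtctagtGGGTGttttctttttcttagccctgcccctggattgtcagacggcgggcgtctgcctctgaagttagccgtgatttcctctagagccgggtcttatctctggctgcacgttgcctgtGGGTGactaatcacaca

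Counting the start base as 1, the Tfpi window held TATAA at -34, TGATAA at 25 and GGAAG on both strands. A further RefSeq start of Tfpi, with the window chr2:84474125-84474424 on the minus strand, held GGAAG and CACCC on its other strand and none of the other motifs. The Procr window held CACCC at -162 and TGACTCA at -154. The Edn1 window held CACCC on its other strand at -197, -84 and 34. Among 32851 windows of the same length over all genes, 24.9% held TATAA, 9.05% TGATAA, 71.4% GGAAG, 57.5% CACCC and 5.20% TGACTCA, so the GGAAG and CACCC letters are common to most windows. No motif in this search was in all 3 printed windows beyond GGAAG and CACCC.

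Per kilobase of exon, Plat, Thbd and Edn1 stood above the other 4 genes. Plat was highest, with 241 ± 57.3 CPM per kb (SD, n = 30 libraries), and ranked first of the 7 in all 30 libraries. Thbd followed with 112 ± 25.5 CPM per kb and was second in 27 libraries, and Edn1 had 63.9 ± 21.8 CPM per kb. Procr (17.2 ± 3.36 CPM per kb) and Vwf (15.4 ± 5.88 CPM per kb) did not differ beyond their spread, and their order turned when the longest transcript was taken as the length (21.8 and 28.0 CPM per kb). Tfpi stood at 8.60 ± 1.81 CPM per kb and F8 at 0.0998 ± 0.0718 CPM per kb, last in all 30 libraries. Among kept genes with a length, Plat was in the top 0.804% by level per kb, Thbd in the top 2.38% and Edn1 in the top 4.80%, against 18.9% for Procr, 20.7% for Vwf and 31.1% for Tfpi.

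**Figure D1:**
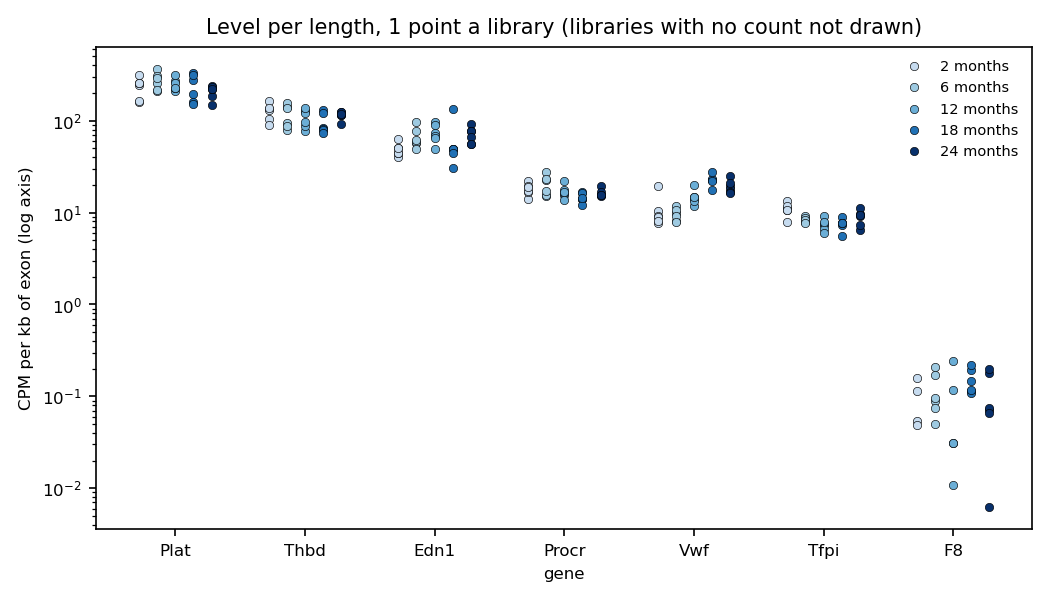
Level of each gene per kilobase of exon (CPM per kb, log axis), with 1 point for each library and shades for age. Plat lies above the other genes in all 30 libraries, F8 below them, and Vwf crosses the level of Procr at the older ages.

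Vwf was the gene of the 7 that rose with age. Its level at 2 months ran from 122 CPM through a median of 147 to 309 CPM, and at 6 months from 127 through 154 to 189 CPM. At 12 months it ran from 190 through 231 to 320 CPM. Thus all 6 libraries of 12 months lay above all 6 of 6 months, as 0.22% of all genes tested did. The nearest libraries were at 190.0 CPM (male 12-month replicate 1) and 189.3 CPM (male 6-month replicate 1). Such shares were counted against 6 months and not against 2 months, where Vwf overlapped. Male 2-month replicate 3, at 309 CPM, lay among the older libraries.

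At 18 months the Vwf level ran from 281 through 365 to 446 CPM, and at 24 months from 260 through 304 to 400 CPM. Both ages lay wholly above 6 months, as 3.22% and 1.27% of all genes did, and both overlapped 2 months through that 1 male library. The fitted slope was 1.22 ± 0.17 log2 (SE) over 22 months (edgeR quasi-likelihood, adjusted p = 1.75e-05), and the others of the 7 did not pass, so 1 of 7 passed where 10.9% of all genes tested did. Rising genes were 5.72% of all tested and falling genes 5.22%. The median slope of the 7 was -0.20 and that of all genes tested 0.03 log2.

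Set against 2 months, Vwf differed by -0.13 ± 0.15 log2 at 6 months (adjusted p = 0.626) and by 0.50 ± 0.15 at 12 months (adjusted p = 0.0647). It was higher by 1.12 ± 0.15 log2 at 18 months (adjusted p = 7.30e-06) and by 0.89 ± 0.15 at 24 months (adjusted p = 2.03e-04). At 18 months 18.8% of all genes passed in either direction, and at 24 months 8.35%. The rise was not straight, since the joint test of further terms of age also passed (adjusted p = 0.0141, a test that 17.7% of genes passed): the level was near 2 months at 6 months, highest at 18 and between at 24.

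The single high library of 2 months changed the size of these differences. Without male 2-month replicate 3 the Vwf slope was 1.38 log2 (adjusted p = 5.50e-07), and the difference at 12 months became 0.73 log2 and passed (adjusted p = 4.94e-04). It also passed without male 12-month replicate 1 (0.59 log2, adjusted p = 0.0348). With each of the 30 libraries left out in turn, the slope stayed between 1.15 and 1.38 log2 and kept its call in all of them.

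Vwf rose in both sexes when each was fitted alone, by 0.98 log2 in the 15 males (adjusted p = 0.0414) and by 1.48 log2 in the 15 females (adjusted p = 0.00252). The female mean was 133 ± 11.6 CPM in the youngest group (SD, n = 3), 360 ± 82.8 CPM at 18 months and 288 ± 40.0 in the oldest group. For males these means were 209 ± 87.8, 368 ± 5.13 and 336 ± 56.6 CPM. The difference between the slopes, female minus male, was 0.49 ± 0.34 log2 and did not pass (adjusted p = 0.879).

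**Figure D2:**
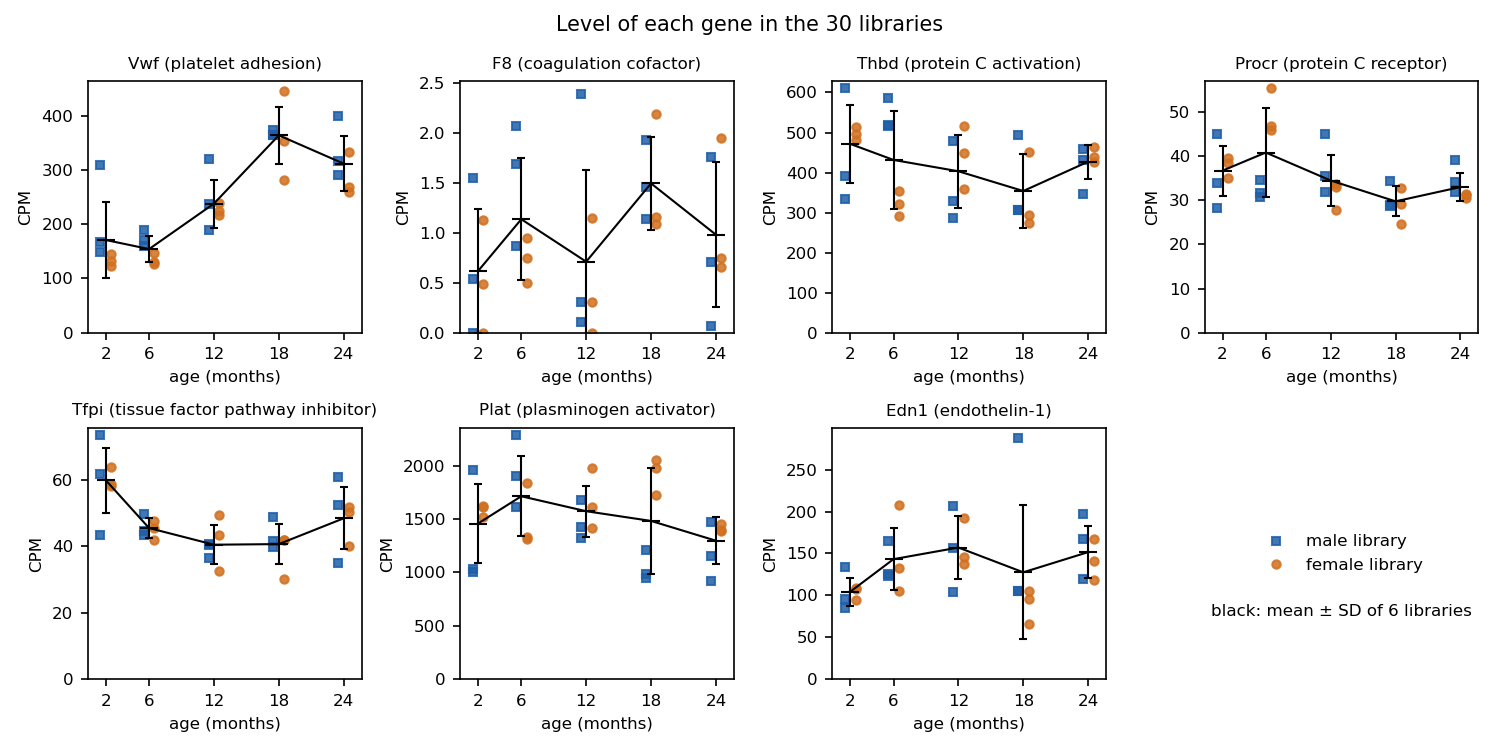
CPM of each gene against age in months, with squares for male and circles for female libraries and black lines for the mean ± SD of the 6 libraries of an age. The mean of Vwf climbs from 171 ± 69.7 CPM in the youngest libraries to 364 ± 52.6 CPM in those of 18 months, Tfpi steps down after 2 months, and the other genes overlap at every pair of ages.

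Vwf moved together with library make-up, and these values stand beside it. Over the 30 libraries its log2 level had a Pearson correlation of 0.58 with the share of reads outside genes and of 0.64 with the share of counts in longer genes, both of which were also highest at 18 months. With that first share as a further covariate the slope was 0.94 log2 and passed (adjusted p = 0.00258), as did the differences at 18 months (1.06 log2, adjusted p = 0.0325) and at 24 months (0.86 log2, adjusted p = 0.00174), while the test of curvature no longer did (adjusted p = 0.122). With the share of longer genes as the covariate the slope was 0.99 log2 (adjusted p = 6.77e-06). Without the 18-month libraries it was 1.002 log2 (adjusted p = 2.16e-04).

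Vwf also moved with summed markers of other cells. Its correlation over the 30 libraries was -0.51 with astrocytes, -0.46 with erythroid cells, -0.42 with choroid plexus, 0.41 with neutrophils and 0.35 with immediate early and dissociation genes. With age 3 of 6 astrocyte and 4 of 5 choroid plexus markers fell, and 4 of 8 pericyte and 1 of 4 neutrophil markers rose. The neutrophil sum was low, with medians of 0.584, 0.206, 0.125, 4.64 and 2.01 CPM from 2 to 24 months. Its highest value was 40.6 CPM, in male 18-month replicate 2. The pericyte sum had a correlation of -0.08 with Vwf. The part of these cells in the Vwf result was not tested.

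Platelets and their precursors also make Vwf. Of 10 platelet and megakaryocyte markers, 10 were kept, all 10 slopes were above 0, with a median of 0.74 log2, and none passed. Against 2 months the median difference at 24 months was 0.99 log2. Their summed level ran from 9.66 to 34.2 CPM at 2 months, 11.7 to 33.4 at 6, 22.7 to 46.0 at 12, 14.3 to 32.2 at 18 and 16.8 to 52.3 CPM at 24 months. None of the 10 was at 0 in all libraries. The summed level had a correlation of 0.35 with Vwf over the 30 libraries, and its part in the Vwf result was not tested.

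Vwf is also richer in veins than in capillaries. Of 11 venous markers 5 rose and 2 fell, and their summed level had medians of 1369, 986, 828, 915 and 918 CPM from 2 to 24 months. The sum and the single markers went different ways, since 8 of the 11 slopes were above 0, with a median of 0.57 log2, and the sum was led by Slc38a5 (mean 471 CPM), an amino acid transporter that fell by 1.20 on the log2 scale. The 5 that rose were Ackr1, Selp, Sele, Lrg1 and Icam1. The part of venous content in the Vwf result was not tested. Of 9 capillary markers 3 fell, and their summed level had medians of 12131 CPM in the 2-month and 8966 CPM in the 24-month libraries. The correlation of Vwf with the venous sum over the 30 libraries was -0.07, and male 18-month replicate 2, the highest in venous markers, had 365 CPM of Vwf, at the median of its age. With the arterial sum the correlation was 0.23, with the capillary sum -0.32 and with the smooth muscle sum 0.33. Of 10 arterial markers 2 rose and 0 fell, with summed medians of 546 CPM at 2 months and 688 CPM at 24 months. The part of these in the Vwf result was not tested. In these bulk samples more cells of a kind and more RNA per cell cannot be told apart.

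F8, the other procoagulant gene and the cofactor that von Willebrand factor carries, was at the edge of detection. Its counts ran from 0 to 89 a library with a median of 28, and it was at 0 in 3 libraries, where 3 counts, the limit that a count of 0 allows, correspond to 0.105, 0.117 and 0.109 CPM. At 2, 18 and 24 months the means were 0.617 ± 0.621, 1.50 ± 0.464 and 0.982 ± 0.726 CPM (SD, n = 6 each), with overlap at every pair of ages. The slope was 0.71 ± 0.79 log2 (adjusted p = 0.605), beside a mean coefficient of variation within an age of 77.6%.

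Tfpi was lower at 6, 12 and 18 months than at 2 months and did not follow a line. At 2 months its level ran from 43.4 through a median of 60.2 to 73.5 CPM, and at 6 months from 41.8 through 45.1 to 49.8 CPM. At 12 months it ran from 32.5 through 40.5 to 49.5 CPM. Of the 2-month libraries 5 lay above all libraries of 6 and 12 months, and male 2-month replicate 3, the 2-month library highest in Vwf, lay among them.

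At 18 months the Tfpi level ran from 30.2 through 41.7 to 48.7 CPM, and at 24 months from 34.9 through 51.1 to 60.9 CPM. The 24-month libraries spread over the range of both younger and middle ages. Against 2 months Tfpi was lower by -0.56 ± 0.13 log2 at 12 months (adjusted p = 0.0125) and by -0.56 ± 0.13 at 18 months (adjusted p = 0.00281), at ages when 2.94% and 18.8% of all genes passed. It differed by -0.40 ± 0.13 log2 at 6 months (adjusted p = 0.0498, with 8.76% of genes passing) and by -0.31 ± 0.13 at 24 months (adjusted p = 0.149).

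The calls at 12 and 18 months were kept in all 30 fits that left out 1 library. That at 6 months was lost in 23 of these 30, with adjusted p from 0.0304 to 0.117 over the 30. The test of curvature passed (adjusted p = 0.0166) and the slope did not (-0.28 ± 0.14 log2, adjusted p = 0.192). When the share of reads outside genes entered the model, the difference at 18 months no longer passed (-0.45 log2, adjusted p = 0.397), that at 12 months still did (-0.55 log2, adjusted p = 0.0189), and curvature gave an adjusted p of 0.0541.

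Tfpi also moved with markers of microglia, the resident macrophages of the brain, with a correlation of 0.63 with their summed level over the 30 libraries. That sum ran from 212 to 1072 CPM at 2 months, 151 to 335 at 6, 143 to 197 at 12, 144 to 413 at 18 and 177 to 349 CPM at 24 months. Male 2-month replicate 1 was highest in both (1072 CPM of microglial markers and 73.5 CPM of Tfpi). On the slope none of the 6 microglial markers passed, but against 2 months several did, as Tfpi did. P2ry12 was lower at 6, 12, 18 and 24 months (adjusted p = 0.0214, 0.00502, 0.0179 and 0.0389), Tmem119 at 12 and 18 months, and Cx3cr1 and Csf1r at 12 months. Curvature passed for these 4 markers (adjusted p from 0.0153 to 0.0491), and their part in the Tfpi result was not tested. Without male 2-month replicate 1 the Tfpi difference was -0.50 log2 at 12 months (adjusted p = 0.0356) and -0.49 log2 at 18 months (adjusted p = 0.00951). Microglia were not alone, since Tfpi had correlations of 0.46 with astrocytes, 0.41 with venous markers and 0.37 with choroid plexus. With neurons, a sum of at most 7.33 CPM, it was 0.41, with arterial markers -0.36 and with the share of reads outside genes -0.41. The part of these in the Tfpi result was not tested.

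**Figure D3:**
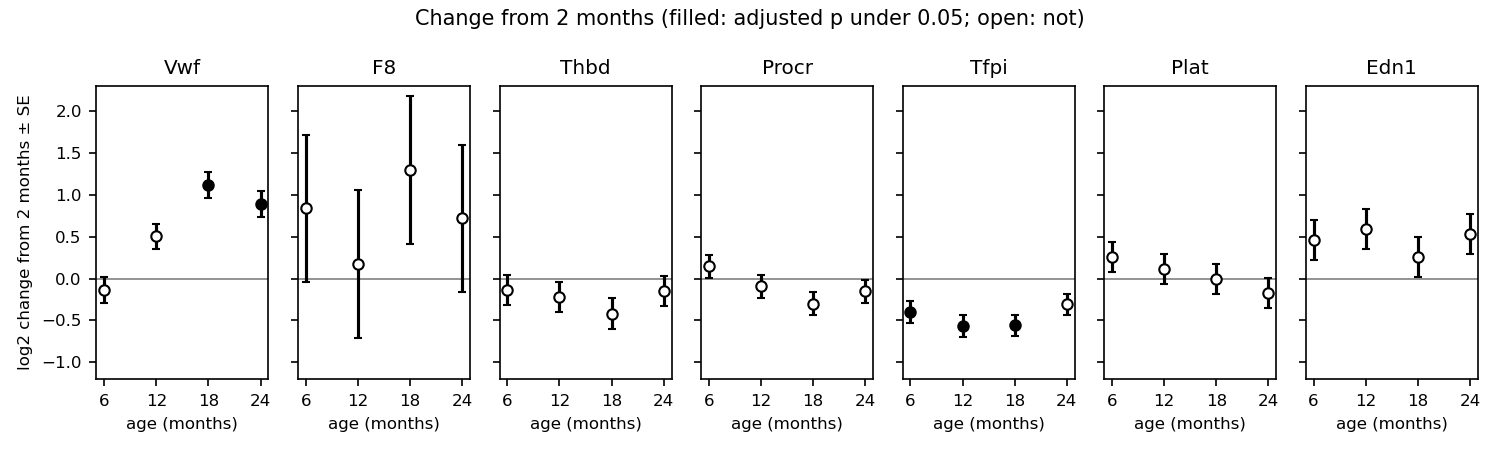
Log2 change from 2 months ± SE for each gene at 6, 12, 18 and 24 months, filled where the adjusted p was under 0.05 and open where it was not. Filled points are those of Vwf at 18 and 24 months, near 1 log2 above 2 months, and those of Tfpi at 6, 12 and 18 months, about 0.5 log2 below it.

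Neither gene of the protein C pathway passed a test on age. The Thbd means at 2, 18 and 24 months were 471 ± 96.9, 354 ± 92.8 and 427 ± 42.4 CPM (SD, n = 6 each). Its slope was -0.20 ± 0.16 log2 (adjusted p = 0.435), and its difference at 18 months, -0.42 ± 0.18 log2, did not pass (adjusted p = 0.105). That difference passed without male 18-month replicate 2 (-0.53 log2, adjusted p = 0.0424), the library with the most venous markers.

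For Procr the means at the same ages were 36.8 ± 5.69, 29.8 ± 3.42 and 33.0 ± 3.21 CPM. All ages overlapped, and the Procr slope of -0.30 ± 0.13 log2 missed the threshold (adjusted p = 0.121). Its log2 level had a correlation of -0.73 with the share of counts in longer genes over the 30 libraries, and with that share as a covariate the slope was -0.14 log2 (adjusted p = 0.431). The part of that share in the levels of Procr was not tested further.

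At 6 months both genes split by sex. Thbd was at 292 to 353 CPM in the 3 females and 517 to 585 CPM in the 3 males, while Procr was at 45.9 to 55.5 CPM in the females and 30.7 to 34.6 CPM in the males. The sexes did not overlap at that age in either gene, and their order was opposite. The share of all genes that split so at 6 months was not counted. Over all ages neither gene passed the test of sex (adjusted p = 0.951 for Thbd and 0.969 for Procr). The 3 females were also the libraries lowest in longer genes, and 3 against 3 libraries cannot give an exact two-sided permutation p under 0.10.

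No test on Plat, the plasminogen activator and the most abundant of the 7, passed. Its means at 2, 6, 18 and 24 months were 1458 ± 372, 1713 ± 373, 1482 ± 496 and 1296 ± 218 CPM (SD, n = 6 each). The lowest age mean was 24 months, yet libraries of every age overlapped, and the Plat slope of -0.26 ± 0.16 log2 missed the threshold (adjusted p = 0.318). At 18 months the 3 females (1724 to 2049 CPM) lay above the 3 males (944 to 1211 CPM). The share of all genes that split so was not counted, and 3 against 3 libraries cannot give an exact two-sided permutation p under 0.10.

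Edn1 varied more within an age than any gene of the 7 but F8, with a mean coefficient of variation of 29.8%. It ran from 85.2 through a median of 102 to 134 CPM at 2 months and from 118 through 154 to 197 CPM at 24 months. At 18 months it ran from 65.5 through 105 to 288 CPM. The highest value was male 18-month replicate 1, and the other 5 libraries of that age were at or under 105 CPM.

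No test on Edn1 passed. The slope was 0.30 ± 0.22 log2 (adjusted p = 0.412) and the difference between 24 and 2 months 0.53 ± 0.24 log2 (adjusted p = 0.177). Without male 18-month replicate 1 the spread fell, and the difference at 24 months (0.54 log2, adjusted p = 0.0459) and the test of curvature (adjusted p = 0.00722) passed. Whether Edn1 passed thus depended on 1 library.

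Sex alone moved none of the 7 past the threshold, where 0.101% of all genes passed. The difference over all ages, female minus male, was -0.28 ± 0.10 log2 for Vwf (unadjusted p = 0.00649, adjusted p = 0.472) and 0.23 ± 0.11 for Plat (unadjusted p = 0.0490, adjusted p = 0.638). F8, on the X chromosome, differed by -0.40 ± 0.56 log2 (adjusted p = 0.930). No gene of the 16844 had slopes that differed between the sexes by edgeR or by DESeq2, while 916 had an unadjusted p under 0.05, among them Procr (-0.52 ± 0.24 log2, unadjusted p = 0.0373).

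The 7 genes did not move as a block. Of the 21 correlations between pairs over the 30 libraries, which share age, sex and library make-up, the lowest was -0.58 between Vwf and Procr and the highest 0.35 between Vwf and F8. Among 13088 genes of mean CPM 1 or more, the 5 most like Vwf were Ric3, Birc6, Ahnak, Epas1 and Atp2a3, with correlations from 0.85 to 0.88. Those most like Tfpi were Cpq, Rab3il1, Tmem119, Lgmn and Ogfrl1 (0.68 to 0.73), and Tmem119 is also one of the microglial markers above. The closest to Thbd was Dusp7 (0.80), to Procr Dcps (0.84), to Plat Rad54b (0.79), to Edn1 Hist1h4d (0.76) and to F8 Perm1 (0.71).

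Beyond the 7, 84 other haemostasis genes were listed by role, and 66 were kept. Of these 10 rose and 4 fell with age, where 10.9% of all genes passed in either direction. Their median slope was 0.10 log2, against 0.03 for all genes tested. When the share of reads outside genes entered the model, 7 of the 14 passed, namely Angpt2, Anxa2, Rab3d, Ptgs2, Serpini1, Serpine2 and Snap23.

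The genes of the granule that stores Vwf moved in both directions, with 5 of 18 that rose, 2 that fell and a median slope of 0.32 log2. Angpt2, the Tie2 ligand angiopoietin-2 packed with Vwf, had means of 60.5 ± 9.60, 89.6 ± 18.4 and 85.8 ± 13.8 CPM at 2, 18 and 24 months (SD, n = 6 each), and rose by 0.73 ± 0.14 log2 (adjusted p = 0.00101). Rab3d, a small GTPase of granule maturation, rose by 0.47 ± 0.10 log2 (adjusted p = 0.00316), from 81.5 ± 14.4 to 115 ± 14.7 CPM at 24 months. Their libraries overlapped between those ages, though the means stood apart by more than 1 SD. Over 11 other settings, such as further covariates or subsets of the libraries, the call of Angpt2 was lost in 1 and that of Rab3d in 2.

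Rab27a and Myrip, the GTPase and its effector that anchor the granules, rose by 0.62 ± 0.20 log2 (adjusted p = 0.0433) and 0.71 ± 0.21 log2 (adjusted p = 0.0289). Rab27a was a low gene, at 5.61 ± 1.73 CPM at 2 months and 7.74 ± 1.76 CPM at 24 months (SD, n = 6). Leaving out 1 library ended its call in 16 of 30 fits, with adjusted p up to 0.0920. The Rab27a call was also lost in 9 of the 11 other settings (adjusted p up to 0.607). The call of Myrip was lost without male 2-month replicate 2 (adjusted p = 0.0659) or female 2-month replicate 1 (adjusted p = 0.0595). It was also lost in 6 of the 11 other settings (adjusted p up to 0.509).

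Selp, the adhesion molecule P-selectin of the same granule, had the steepest slope of the 18, 3.16 ± 0.92 log2 (adjusted p = 0.0234), at a mean of 1.60 CPM. It was at 0.459 ± 0.271 CPM at 2 months and 1.98 ± 1.08 CPM at 24 months (SD, n = 6), and ran from 0 to 18.7 CPM at 18 months. Without male 18-month replicate 2 its slope was 2.40 log2 and did not pass (adjusted p = 0.0592). The Selp call was also lost in 6 of the 11 other settings, among them limma-voom (adjusted p = 0.0996). Snap23 and Vamp3, membrane fusion proteins of exocytosis, fell by 0.37 and 0.30 on the log2 scale (SE 0.11 and 0.09, adjusted p = 0.0287 for each). Snap23 lost its call in 6 and Vamp3 in 3 of 30 fits that left out 1 library. In the 11 other settings Snap23 lost it in 5 and Vamp3 in 7.

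**Figure D4:**
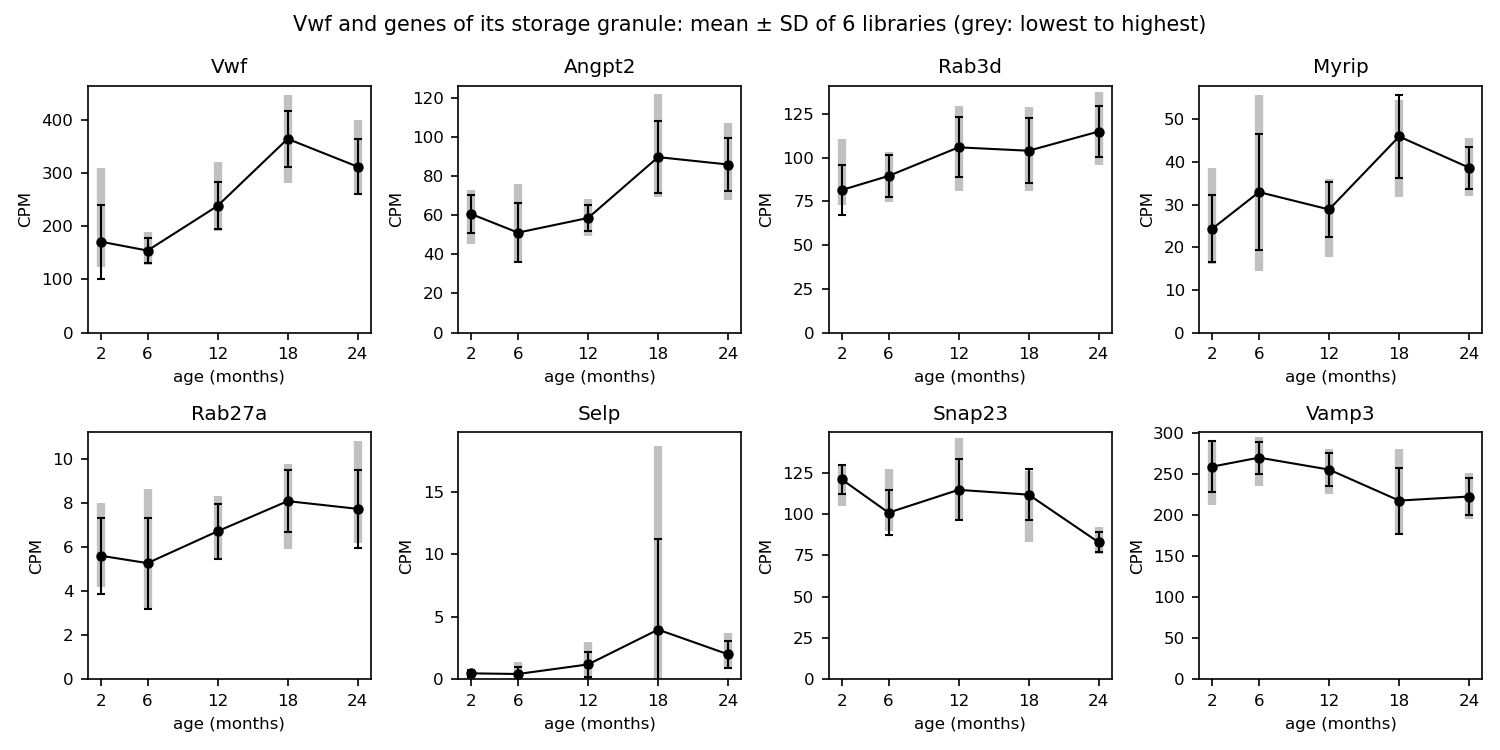
CPM of Vwf and of the 7 genes of its storage granule and release that passed on age, as mean ± SD of 6 libraries with grey bars from the lowest to the highest library. Vwf, Angpt2 and Myrip are highest at 18 months, Rab3d climbs to 24 months, Selp at 18 months rests on 1 library of 18.7 CPM, and Snap23 and Vamp3 are lower at 24 months than at 2 months.

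Of 17 coagulation factors listed, 10 were kept and none passed, with a median slope of 0.06 log2. F3, tissue factor, which starts coagulation and is made mainly outside the endothelium, was at 41.2 ± 19.0 CPM at 2 months and 47.4 ± 24.9 CPM at 24 months (SD, n = 6), with a slope of 0.09 ± 0.29 log2 (adjusted p = 0.876). The fibrinogen genes Fga, Fgb and Fgg, products of the liver, were at 0 in all libraries. None of the 3 kept thrombin receptors, the 4 kept anticoagulants or the 4 kept genes of Vwf cleavage and clearance passed; the median slope of the anticoagulants was -0.66 log2.

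The largest fall among the 4 that passed was in fibrinolysis. Serpine2, protease nexin-1, an inhibitor of thrombin and plasminogen activators, had means of 338 ± 48.7, 175 ± 24.1 and 109 ± 31.2 CPM at 2, 6 and 24 months (SD, n = 6 each). Its slope was -1.47 ± 0.18 log2 (adjusted p = 2.21e-06), and every older library lay below every library of 2 months. The share of all genes with such a separation was not counted. The call was kept in all 41 alternative fits. Markers of other cells fell with it: 3 of 6 astrocyte markers (Aldoc, Slc1a3 and Gjb6), with a list median of -0.84 log2, and 4 of 5 choroid plexus markers, with a list median of -1.57 log2. The summed astrocyte level ran from 335 to 1064 CPM at 2 months and from 149 to 474 CPM at 24 months, and that of choroid plexus from 915 to 4303 and from 625 to 2273 CPM, with no marker at 0 in all libraries. Their part in the Serpine2 result was not tested.

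Anxa2, a co-receptor for plasminogen and Plat, rose by 0.33 ± 0.11 log2 (adjusted p = 0.0435), from 424 ± 56.9 to 561 ± 74.7 CPM at 24 months. Leaving out 1 library ended the call in 19 of 30 fits (adjusted p up to 0.0872), and 6 of the 11 other settings ended it (adjusted p up to 0.590). Serpini1, neuroserpin, an inhibitor of Plat, rose by 0.75 ± 0.19 log2 (adjusted p = 0.00831), from 9.58 ± 2.57 to 16.0 ± 4.84 CPM. The Serpini1 call was lost in 4 of the 11 other settings (adjusted p up to 0.209). Of 13 fibrinolysis genes 8 were kept, 2 rose and 1 fell.

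Among 6 genes that restrain platelets Ptgs2 passed. It encodes cyclooxygenase-2, which feeds prostacyclin synthesis, and its means at 2, 18 and 24 months were 11.4 ± 3.17, 52.1 ± 29.0 and 38.0 ± 12.1 CPM (SD, n = 6 each). The slope was 2.04 ± 0.32 log2 (adjusted p = 8.50e-05), and all 6 libraries of 12, 18 and 24 months lay above all 6 of 2 months. How many of all genes separated in that way from 2 months was not counted. Ptgs2 is induced early by stress, and of 10 immediate early and dissociation genes 4 rose, with a summed level of 1296 to 2154 CPM at 2 months and 1419 to 3748 CPM at 18 months. Their part in the Ptgs2 result was not tested.

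In the endothelin system, Ece2, a converting enzyme, fell by 0.51 on the log2 scale (SE 0.15, adjusted p = 0.0253), from 14.6 ± 1.70 to 10.8 ± 1.56 CPM (SD, n = 6). Its call was lost without male 2-month replicate 2 (adjusted p = 0.0529) and in 6 of the 11 other settings (adjusted p up to 0.382). Ece1, the main converting enzyme of the endothelium, was at 629 ± 129 and 543 ± 44.5 CPM at 2 and 24 months, with a slope of -0.01 ± 0.14 log2 (adjusted p = 0.974). Ednrb, the endothelin B receptor, was at 21.8 ± 11.6 and 10.97 ± 2.17 CPM, and its slope of -0.67 ± 0.31 log2 missed the threshold (adjusted p = 0.169).

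Of 8 regulators of these genes 2 rose. Klf2, the flow-induced factor that raises Thbd, was at 1004 ± 216 CPM at 2 months and 1181 ± 317 CPM at 24 months (SD, n = 6), with a slope of -0.09 ± 0.16 log2 (adjusted p = 0.762). Klf4 had a slope of 0.01 ± 0.13 log2 (adjusted p = 0.983). Mef2c, upstream of both, rose by 0.44 ± 0.12 log2 on the slope (adjusted p = 0.0203), but it was lower than at 2 months at 6 months (-0.40 log2, adjusted p = 0.0149), higher at 18 (0.32 log2, adjusted p = 0.0292) and at 24 months did not pass (0.19 log2, adjusted p = 0.299). Its curvature passed (adjusted p = 0.00395), and the call on the slope was lost in 6 of 11 other settings, with adjusted p up to 0.284.

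Erg, an ETS factor that drives Vwf, rose by 1.14 ± 0.27 log2 (adjusted p = 0.00582) but not along a line. Its level was 24.7 ± 2.91 CPM at 2 months, 61.8 ± 7.30 at 6, 29.7 ± 3.86 at 12, 75.2 ± 18.2 at 18 and 71.4 ± 11.7 CPM at 24 months (SD, n = 6). Every library of 6, 18 and 24 months lay above every library of 2 and 12 months, and the share of all genes with that order was not counted. The slope call of Erg was lost without the 2-month libraries (0.55 log2, adjusted p = 0.305), without those of 18 months (0.95 log2, adjusted p = 0.0548) and in 3 of the other 9 settings. The labels give no processing batch, so a batch that went with age cannot be told apart from age here. Against 2 months, Vwf differed by -0.13 log2 at 6 months (adjusted p = 0.626) and by 0.50 log2 at 12 months (adjusted p = 0.0647), and neither passed. Like Erg, Vwf was highest at 18 and 24 months. Between 6 and 12 months the genes went opposite ways. All 6 Vwf libraries of 12 months lay above all 6 of 6 months, as 0.22% of all genes tested did. For Erg all libraries of 12 months lay below those of 6 months. The part of Erg or of a batch in the Vwf result was not tested.

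**Figure D5:**
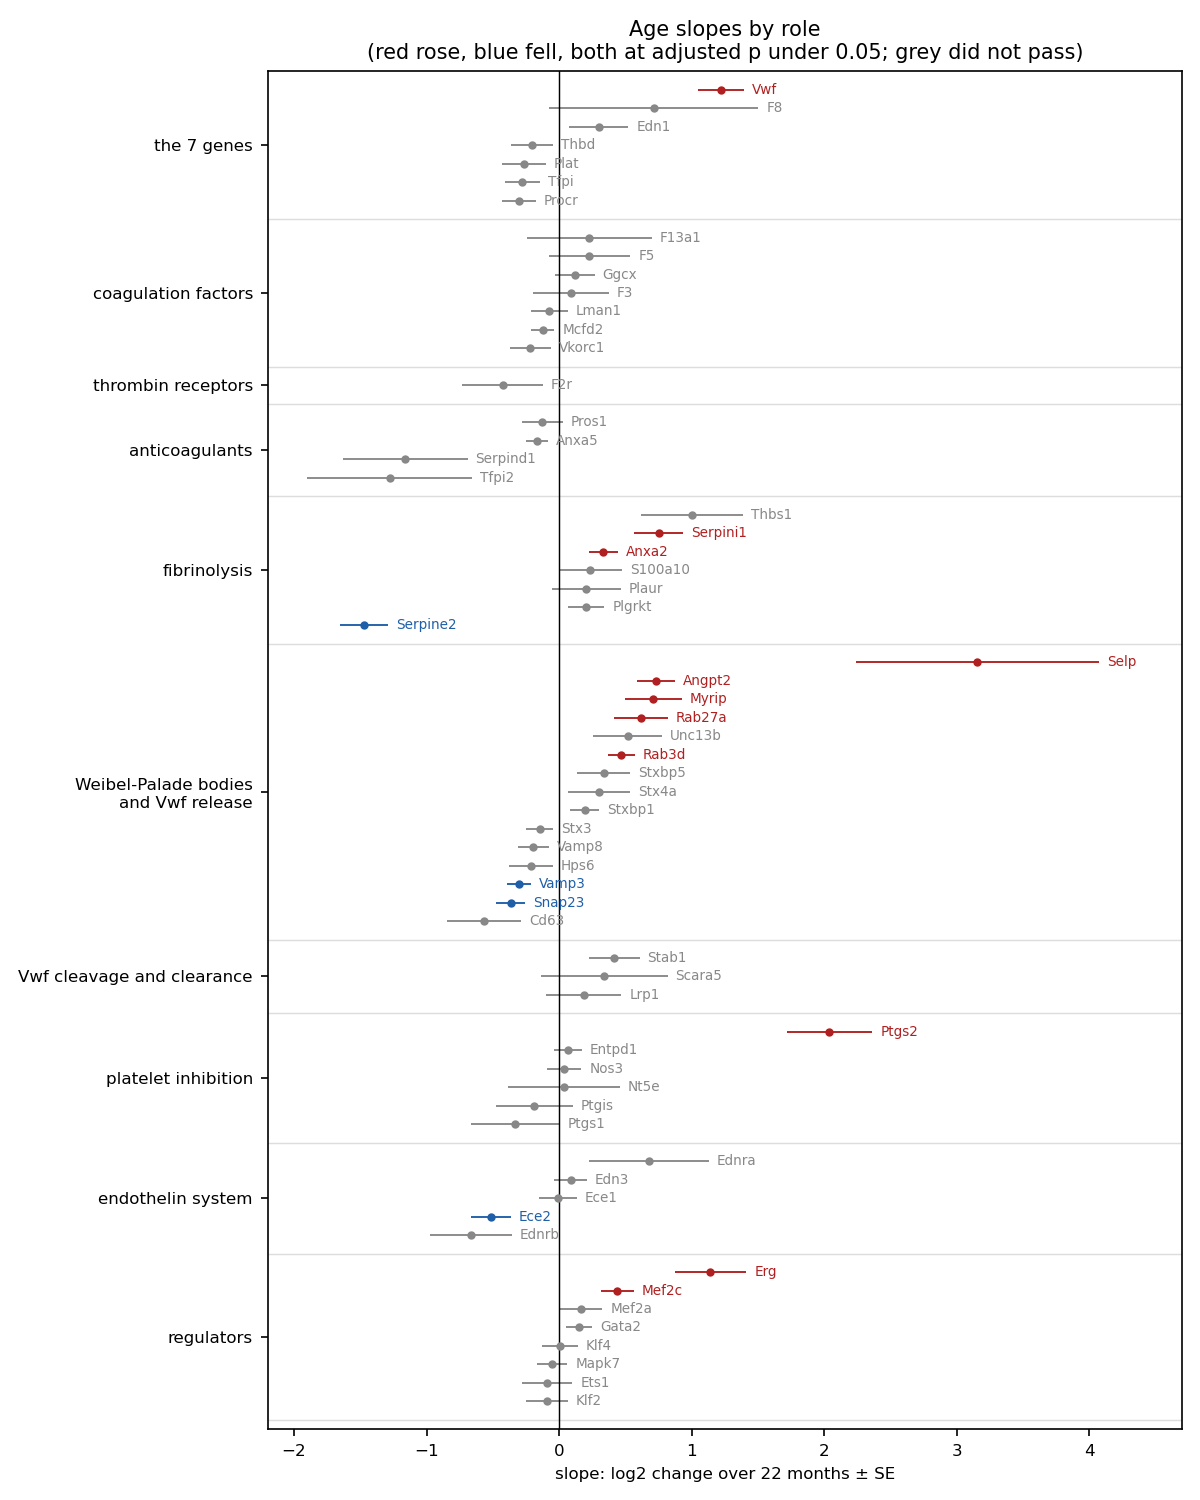
Age slopes (log2 change over 22 months ± SE) of the 7 genes and of the 56 other haemostasis genes with a mean of 1 CPM or more, by role. Of the genes that passed, Vwf, Selp, Ptgs2 and Erg lie above 1 and Serpine2 below -1.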

How the data were processed

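RNA from brain endothelial cells of 30 libraries (5 ages, 10 groups of age and sex, groups taken from the titles) was examined. The libraries were full-length cDNA from a low-input kit that keeps neither strand nor molecular identifiers, and, per the labels' protocols, 24 had paired and 6 single reads of 50 bases. Tools in the submitters' processing notes are STAR 2.5.2b, HTSeq, FastQC 0.11.4 and MultiQC, and the build is GRCm38. The authors deposited raw read counts per gene. Reads of either strand were taken, without the 4 summary lines that belong to no gene. Of 48795 identifiers 48349 matched a name once versions were dropped.

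In R 4.3.3, edgeR 4.0.16 kept 16844 genes (filterByExpr by age, minimum count 10, minimum total 15), scaled by TMM and fitted robust quasi-likelihood models to all libraries, with sex as covariate. The slope took age in months, the contrasts with 2 months took age as a factor, and p-values were adjusted over all kept genes (Benjamini-Hochberg, 0.05). CPM uses TMM-scaled library sizes; correlations used log2 CPM with a prior count of 2. Fits were tested on simulated data. Alternatives were DESeq2 1.42.0, limma-voom (3.58.1), no filter, further covariates, subsets of ages and sexes, and each library left out. Lengths and coordinates are from GENCODE M21.

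The members, lists and naming rule (all listed genes that passed on age, plus F3, Ece1, Ednrb, Klf2 and Klf4) were chosen with earlier results of these data known; a further gene of that rule is not reported here. Depth was 24140980 to 50464366 counts, so 3 counts correspond to 0.0594 to 0.124 CPM; such limits cover counting error only. The design text calls the libraries biological replicates; the sources used here do not say whether each holds 1 mouse or several. Of 30 pairs of libraries within a group all differed beyond sampling noise (chi-square per degree of freedom at least 14.9).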

Additional observations from a re-analysis of the deposited data

Results flagged for a closer look

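Of 35 sets of 6 libraries (7 genes at 5 ages), 3 had a library far from the other 5, by a test in which chance marks about 1 in 20. Vwf at 2 months was at 309.5 CPM in male replicate 3, against 122 to 167 CPM in the others. That library had the highest summed venous level of its age (1700 CPM), the highest share of longer genes (56.8%) and the lowest Tfpi. Thbd at 24 months was at 346.4 CPM in male replicate 2, against 425 to 464 CPM in the others, and that library had the highest summed levels of its age for pericytes (1182 CPM) and smooth muscle (379 CPM). Edn1 at 18 months was at 287.9 CPM in male replicate 1, against 65.5 to 105 CPM in the others.

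In 3 cases all libraries of 1 sex lay on one side of the 2-month mean of that sex and all of the other sex on the other side. These differences were not tested. The search took each gene of the set at every later age, and the share of all genes with such a pattern was not counted. Without that share the 3 cases cannot be set apart from what other genes would give. The edgeR test of slopes between the sexes was passed by 0 of the 16844 genes. Thbd at 6 months was higher than at 2 months by 0.28 log2 in males and lower by -0.63 in females, a difference of 0.91. Procr at 6 months moved by -0.14 log2 in males and 0.39 in females, a difference of -0.53. Plat at 18 months moved by -0.35 log2 in males and 0.28 in females, a difference of -0.62.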

How the results depend on the processing

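Of the 7 genes 1 passed on age in every fit that left out 1 library and in most other settings. Without the 24-month libraries, or with age on a log2 scale, 2 passed, Tfpi being added (-0.72 log2, adjusted p = 0.00641, and -0.41 log2, adjusted p = 0.0283). The Vwf slope kept its call in all 41 alternatives, from 0.94 to 1.67 log2 with adjusted p from 5.05e-10 to 0.0414. At 12 months 2 of the 7 passed by DESeq2 and by limma-voom, where Vwf joined Tfpi (adjusted p = 0.0281 and 0.0409). At 6 months 0 passed without the filter, by limma-voom and with reads outside genes as a covariate, against 1 as reported. With that covariate 1 passed at 18 months in place of 2, and 0 in place of 2 showed curvature. Leaving out 1 library gave 0 to 1 at 6 months, 1 to 2 at 12, 2 to 3 at 18, 1 to 2 at 24 months and 2 to 3 for curvature. The cause was not tested.

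The number of genes passing on age, 1843 as reported, was 402 with reads outside genes as a covariate, 940 without the 2-month and 726 without the 18-month libraries, 193 in males and 623 in females; the last 4 used fewer libraries. It ran from 1308 to 2021 with 1 library left out. The other haemostasis genes, 14 as reported, numbered 7 with that covariate, 5 without the 2-month and 6 without the 18-month libraries, 3 in males, 3 in females and 8 to 15 with 1 library left out. Slopes that did not pass changed sign for Edn1 and Tfpi without the 2-month libraries (-0.07 and 0.07 log2), for F8 with the covariate (-0.01) and for Plat in females (0.03). With the longest transcript as length, Plat stood at 372, Vwf at 28.0, Procr at 21.8 and Tfpi at 11.8 CPM per kb. No paired analysis was possible because replicate numbers came from accession order and pair no samples. F8 had the fewest counts of the 7, with a median of 28 a library.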

Other observations

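Stx4a, a syntaxin of granule release named here after its values were seen, did not pass on the slope (0.30 ± 0.24 log2, adjusted p = 0.437) yet had the order of ages seen in Erg between 2, 6 and 12 months. It was at 38.6 ± 5.92 CPM at 2 months, 88.4 ± 12.9 at 6, 44.6 ± 7.66 at 12, 54.7 ± 11.1 at 18 and 74.2 ± 9.67 CPM at 24 months (SD, n = 6). All 6 libraries of 6 months lay above all of 2 and 12 months, and the difference from 2 months was 1.19 ± 0.13 log2 at 6 months (adjusted p = 6.19e-07) and 0.21 ± 0.13 at 12 months (adjusted p = 0.425). For Stx4a, as for Erg, a batch that went with age cannot be told apart from age. S100a10, the partner of Anxa2 in binding plasminogen, also chosen after its values were seen, was at 26.1 ± 4.09 CPM at 2 months (SD, n = 6) and 48.2 ± 7.20 CPM at 6 months, with no overlap of libraries. Its difference from 2 months was 0.89 ± 0.20 log2 at 6 months (adjusted p = 0.00671) and 0.75 ± 0.20 at 24 months (adjusted p = 0.0157), while at 18 months it was 0.26 ± 0.20 (adjusted p = 0.381). For neither Stx4a nor S100a10 was the share of all genes with such a separation of libraries counted.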
